A study of Homo sapiens with 6 samples.

Results

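The transcripts of de novo purine and pyrimidine synthesis were followed in T24, a human cell line established from a carcinoma of the bladder. The 10 genes were taken by name from the deposited gene expression table: PPAT, GART, PFAS, PAICS, ADSL, ATIC, IMPDH2, GMPS, CAD and CTPS1. All 10 were found among the 58825 entries of that table, and all 10 were among the 12714 genes that passed the filter on low values and were tested. The cells carried either a control hairpin, shNC-1, whose genotype the labels give as WT, or a hairpin against DLGAP5, shDLGAP5-1, with 3 libraries of each, and all were grown in the same medium with fetal bovine serum. DLGAP5 encodes a protein of the mitotic spindle, and the series concerns its part, with the transcription factor E2F1, in bladder cancer. The control columns carry the letters NC. The other 3 columns carry a construct number and were taken as shDLGAP5-1 because that is the only other group. The labels name 1 hairpin against DLGAP5, do not say whether the cells were a clone or a pool, and do not say that the libraries of a group came from separate cultures. The p-values therefore reflect the spread between these libraries alone, which may be technical.

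Cells make purine bases step by step on a phosphorylated ribose, phosphoribosyl pyrophosphate (PRPP), until inosine monophosphate (IMP) is reached, from which separate branches lead to the adenine and guanine nucleotides. Pyrimidines are made the other way round: the ring is closed before it is joined to PRPP, giving uridine nucleotides, part of which are then aminated to cytidine nucleotides. Glutamine gives nitrogen at several of these steps and folate carries carbon into the purine ring, and proliferating cells, carcinoma lines included, draw on these routes for RNA and DNA.

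Levels are FPKM values, which adjust fragments for transcript length and library size and can be compared between genes. The shNC-1 libraries held an estimated 22000000, 28200000 and 25300000 fragments (replicates 1 to 3), and the shDLGAP5-1 libraries 13800000, 14000000 and 18700000. These estimates were read from the most frequent low value, times length, in single-exon genes. It was searched within a preset range, which also bounds the estimates, so they are approximate. By these estimates every shDLGAP5-1 library was shallower than every shNC-1 library, so depth and hairpin cannot be told apart. Genes at 1 FPKM or more numbered 12177 to 12279 in shNC-1 and 12711 to 13216 in shDLGAP5-1. At these depths the members' values rested on about 466 fragments (the lowest, PPAT) to 8414 fragments (the highest, PAICS) per library. These fragment numbers take the longest annotated transcript as the length, which the deposited values need not have used. DLGAP5 itself stood at 29.7 to 33.0 FPKM in the shNC-1 libraries and at 4.0 to 7.51 FPKM in the shDLGAP5-1 libraries. Of 11 epithelial and urothelial markers, 6 reached 1 FPKM in at least 1 library. The keratins KRT7, KRT8 and KRT18 were abundant, KRT19 was at 10.6 to 20.9 FPKM and EPCAM at 0.765 to 1.185 FPKM. GATA3 was at or below 0.544 FPKM and CDH1 at or below 0.167 FPKM. The uroplakins UPK1A, UPK1B and UPK2 were at or below 0.201 FPKM in every library. UPK3A was at 0 in 5 libraries and at 2.28 FPKM in shDLGAP5-1 replicate 3. The summed level of the markers, mostly KRT7, KRT8 and KRT18, was 1280 to 1530 FPKM in shNC-1 and 1160 to 1450 FPKM in shDLGAP5-1. The library of shDLGAP5-1 replicate 3 stood apart in the sum of 9 leukocyte markers, 761 FPKM against 8.36 to 32.4 FPKM in the other libraries. LYZ, lysozyme, made up 686 FPKM of it. PTPRC (7.03 FPKM), TYROBP (11.2), FCER1G (8.8), LAPTM5 (34.7) and CD68 (13.0) were also at their highest there. CD14 and CD79A were not, and CD3E was at 0 in every library. PECAM1, listed as an endothelial marker, was at 8.45 FPKM in shDLGAP5-1 replicate 3 and at or below 0.388 FPKM in the others. Values without shDLGAP5-1 replicate 3 are given where they move a member's log2 fold change by over 1.5 times. They are also given where they end or make a call among the members, the other genes called and the remaining genes of the de novo routes.

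Of the 10 members 4 were lower in shDLGAP5-1 cells and 0 were higher, by limma with Benjamini-Hochberg adjustment over all genes tested at a threshold of 0.05. Over all tested genes 9.52% were called lower and 15.3% higher, 24.8% in all. The 4 were CTPS1 and CAD, the pyrimidine members, and PFAS and ATIC, of the route to IMP. In the same 4 genes, and in no other member, all shDLGAP5-1 libraries lay below all shNC-1 libraries; over all tested genes this held for 18.3% in that direction and for 25.6% in the other. The median log2 fold change of the members, taken on log2(FPKM + 1) as shDLGAP5-1 minus shNC-1, was -0.28, against 0.03 over all tested genes. In bulk RNA a smaller number of expressing cells and less RNA per cell cannot be told apart. The calls were not equally stable. CTPS1 passed in all 15 alternative analyses and PFAS in 14 of 15, CAD in 8 and ATIC in 6. Without shDLGAP5-1 replicate 3 the calls were 3, ATIC being the member that no longer passed (limma adjusted p = 0.0873).

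**Figure D1:**
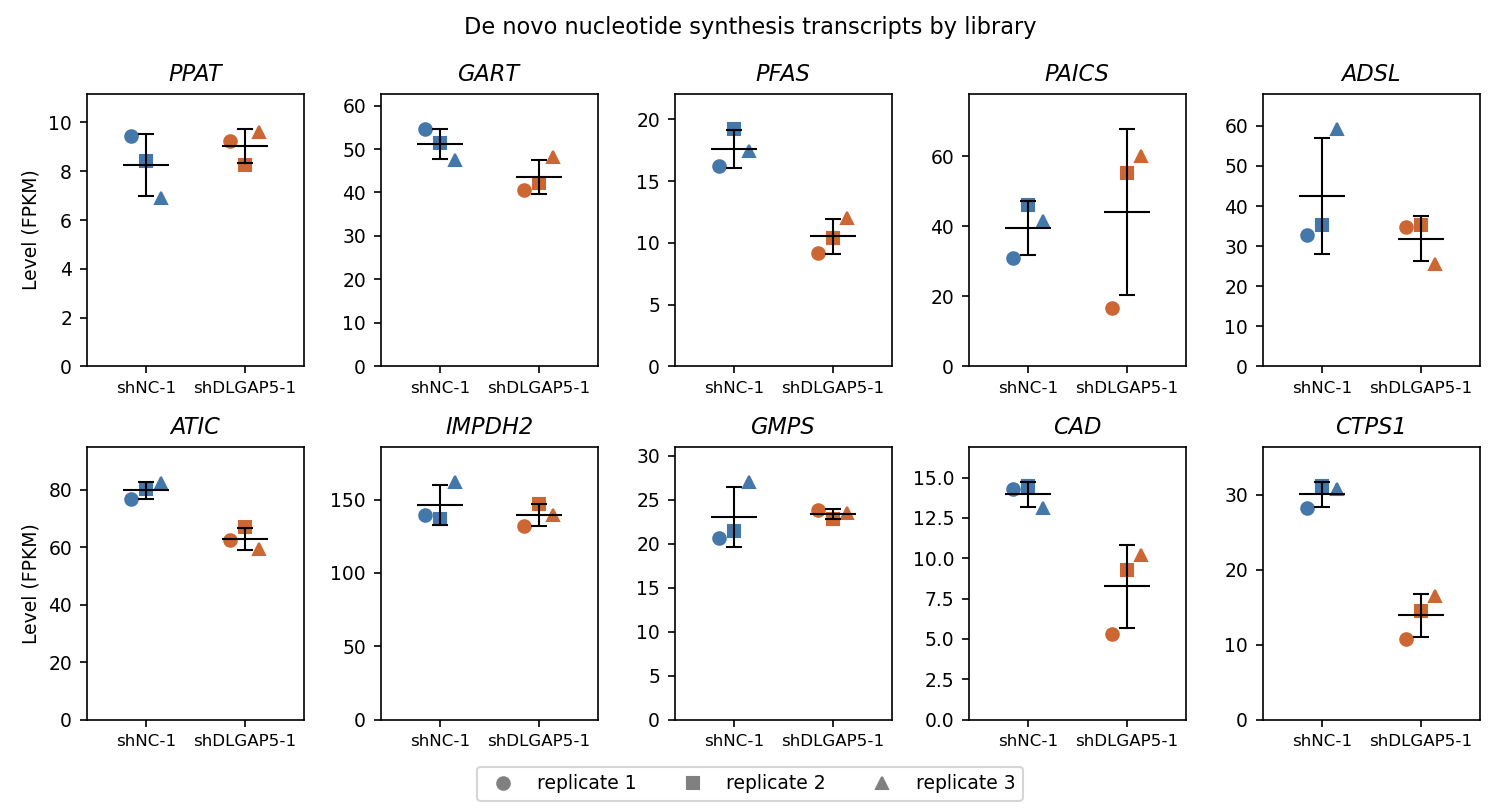
Level of each of the 10 members (FPKM, linear axis from 0) in the 3 shNC-1 libraries (blue) and the 3 shDLGAP5-1 libraries (orange); symbols give the replicate, black bars the mean and the SD. The groups stand apart in PFAS, ATIC, CAD and CTPS1 and overlap in the other 6 panels; PAICS ranges from 16.8 to 60.0 FPKM within shDLGAP5-1.

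The start regions of these genes are shown because 4 members were lower together and because 1 pair of members shares its start region. RefSeq windows (GRCh38.p14) of 250 bases before to 50 after the RefSeq start were matched for 8 of the 10 members. ADSL and IMPDH2 were not matched. GART and PAICS had 3 windows each and CTPS1 had 2, of which the nearest to the deposited start was used. The windows of PFAS, CTPS1 and GART lie inside the gene and do not reach the deposited starts, at 8247618, 40979335 and 33543491. Other windows of these genes were not searched. Printed 5′ to 3′ on the strand of the gene, with matches to the E-box CACGTG and to the GC box GGGCGG (either strand, so also CCGCCC) in capitals, the windows of the 4 lower genes and of PPAT are as follows. They lie at chr1:40979446-40979745 (plus strand, CTPS1), chr2:27217119-27217418 (plus, CAD), chr17:8249039-8249338 (plus, PFAS), chr2:215311809-215312108 (plus, ATIC) and chr4:56435566-56435865 (minus, PPAT).
CTPS1: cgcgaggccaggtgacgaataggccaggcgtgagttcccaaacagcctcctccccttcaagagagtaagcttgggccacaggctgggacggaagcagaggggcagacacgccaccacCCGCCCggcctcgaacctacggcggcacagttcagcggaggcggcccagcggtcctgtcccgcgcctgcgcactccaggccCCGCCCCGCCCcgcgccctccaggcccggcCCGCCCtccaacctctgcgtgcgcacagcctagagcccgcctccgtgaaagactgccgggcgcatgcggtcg
CAD: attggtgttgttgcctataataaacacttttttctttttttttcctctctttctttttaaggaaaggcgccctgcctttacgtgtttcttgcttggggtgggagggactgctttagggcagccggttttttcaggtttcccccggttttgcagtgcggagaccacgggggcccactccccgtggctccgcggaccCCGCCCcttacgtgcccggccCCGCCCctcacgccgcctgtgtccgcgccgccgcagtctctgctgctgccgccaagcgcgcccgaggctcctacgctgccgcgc
PFAS: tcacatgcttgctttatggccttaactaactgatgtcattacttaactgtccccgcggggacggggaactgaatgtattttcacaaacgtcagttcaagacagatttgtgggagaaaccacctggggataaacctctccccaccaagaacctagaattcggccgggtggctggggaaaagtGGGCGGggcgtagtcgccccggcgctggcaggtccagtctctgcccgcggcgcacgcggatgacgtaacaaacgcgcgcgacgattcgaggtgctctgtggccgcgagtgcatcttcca
ATIC: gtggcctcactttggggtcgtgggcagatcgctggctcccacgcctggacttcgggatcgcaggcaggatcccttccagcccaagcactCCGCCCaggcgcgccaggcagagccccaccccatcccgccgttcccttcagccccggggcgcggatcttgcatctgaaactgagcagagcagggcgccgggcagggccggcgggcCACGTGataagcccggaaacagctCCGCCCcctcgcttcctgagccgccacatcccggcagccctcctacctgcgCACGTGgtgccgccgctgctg
PPAT: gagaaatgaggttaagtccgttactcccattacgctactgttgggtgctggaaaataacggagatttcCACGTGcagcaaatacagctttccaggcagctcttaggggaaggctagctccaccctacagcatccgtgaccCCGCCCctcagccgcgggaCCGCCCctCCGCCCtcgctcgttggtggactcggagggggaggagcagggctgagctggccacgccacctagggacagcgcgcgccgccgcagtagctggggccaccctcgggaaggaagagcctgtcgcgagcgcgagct
The E-box, which reads the same on both strands and is bound by MYC with MAX among other factors, was found in the windows of ATIC, at 2 places, PPAT and PAICS, that is in 3 of 8 members, and in 7.26% of all 35116 windows of this length. The match in PPAT and that in PAICS are the same site, in bases that their windows share, so these members do not count separately. Of the lower genes, CTPS1, CAD and PFAS had no match to the E-box. The GC box was found in 7 of 8 windows, all but that of GART, against 45.0% of all windows. Its matches in PPAT and PAICS are again the same sites, and in CTPS1 a pair of its matches overlaps. The CCAAT box (CCAAT, either strand) was found in GART and CAD, against 34.6% of all windows. The E2F elements TTTGGCGC and TTTCCCGC, the NRF1 element and the cAMP response element TGACGTCA, each on either strand, were found in 0 of 8 windows and in 0.652%, 1.63%, 1.24% and 1.85% of all windows. GC content of the 8 windows was 57.0% (PFAS) to 79.3% (GMPS). That of all windows was not computed, so the shares over all windows are not matched for GC content. These are matches of letters, and no binding was measured.

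PPAT carries out the committed step of the purine route, the transfer of an amide nitrogen from glutamine to PRPP, and PAICS, further along, adds a carboxyl group and then aspartate. The genes lie head to head on chromosome 4: PPAT on the minus strand from 56393362 to 56435615 and PAICS on the plus strand from 56435741 to 56464579, with 125 bases between their ends in the deposited table. Their RefSeq windows share 236 bases, so the E-box and the 3 GC boxes printed for PPAT are also those of PAICS. In the order of replicates 1 to 3, kept throughout, PPAT measured 9.44, 8.43 and 6.91 FPKM in shNC-1 and 9.22, 8.24 and 9.60 FPKM in shDLGAP5-1. The groups overlapped, and the log2 fold change was 0.12 (standard error, SE, 0.14; limma adjusted p = 0.555), with a 95% interval of the ratio from 0.868 to 1.36. It was the least abundant member in the shNC-1 cells, at 8.26 ± 1.27 FPKM (SD, n = 3).

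PAICS had the widest spread of the members within shDLGAP5-1, with an SD of 53.9% of its mean. Its level was 30.9, 46.0 and 41.5 FPKM in shNC-1 and 16.8, 55.4 and 60.0 FPKM in shDLGAP5-1. In shDLGAP5-1, replicates 2 and 3 lay above every control and replicate 1 below every control. The log2 fold change of -0.02 (SE 0.45; limma adjusted p = 0.979) has a wide interval of the ratio, from 0.470 to 2.07. Without shDLGAP5-1 replicate 1 it was 0.55 (limma adjusted p = 0.0744), and without shDLGAP5-1 replicate 3, the library with the high leukocyte sum, -0.34 (limma adjusted p = 0.623). In shDLGAP5-1 replicate 1, where PAICS was low, PPAT did not follow it. The PAICS to PPAT ratio was 1.82 in that replicate against 6.73 and 6.25 in shDLGAP5-1 replicates 2 and 3 and 3.27 to 6.01 in shNC-1. The table lists 7 entries named as PAICS pseudogenes, all at a mean of 0.02 FPKM or less in both groups. CMPK1, the kinase of UMP and CMP, named here after its values were seen, was also low in shDLGAP5-1 replicate 1. It was at 13.6 FPKM there and 42.8 to 49.8 FPKM in the other 5 libraries.

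GART, whose protein carries out several of the early purine steps, PFAS, which adds an amide nitrogen from glutamine, and ATIC, which adds the last carbon from formyl folate and closes the ring to IMP, all had lower means in shDLGAP5-1 cells. PFAS (ENSG00000178921, chromosome 17 from 8247618 to 8270491, plus strand) was at 16.2, 19.2 and 17.4 FPKM in the shNC-1 libraries and at 9.20, 10.4 and 12.0 FPKM in shDLGAP5-1. The groups did not overlap, and PFAS fell from 17.6 ± 1.55 to 10.5 ± 1.40 FPKM (SD, n = 3 each), 40.1% lower, a log2 fold change of -0.69 (SE 0.13; limma adjusted p = 0.0109). The call was lost without shNC-1 replicate 2 (limma adjusted p = 0.0539). PFAS overlaps CTC1 on the other strand by 478 bases, a gene that averaged 2.71 and 3.63 FPKM in the control and knockdown libraries.

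ATIC (ENSG00000138363, chromosome 2 from 215311956 to 215349773, plus strand) measured 76.7, 80.1 and 82.3 FPKM in the shNC-1 libraries and 62.3, 67.0 and 59.3 FPKM in shDLGAP5-1. The change was smaller than that of PFAS but the libraries of each group lay close together: 79.7 ± 2.82 against 62.9 ± 3.91 FPKM (SD, n = 3 each), 21.1% lower, a log2 fold change of -0.34 (SE 0.10; limma adjusted p = 0.0427). The call was lost in each of the 6 fits that left out 1 library (limma adjusted p = 0.0583 to 0.153), which also hold fewer samples. GART was at 54.5, 51.3 and 47.5 FPKM in the shNC-1 libraries and at 40.6, 42.2 and 48.1 FPKM in shDLGAP5-1. The highest shDLGAP5-1 library lay just above the lowest control, and the log2 fold change of -0.23 did not pass (SE 0.11; limma adjusted p = 0.178; 95% interval of the ratio 0.714 to 1.02). The start of GART overlaps that of SON on the other strand by 454 bases, and SON was at 46.4 and 48.8 FPKM, so some reads of the pair cannot be told apart unless strand was used.

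ADSL, the lyase that acts both before IMP and in the adenine branch, varied within the groups. It measured 32.9, 35.4 and 59.2 FPKM in the shNC-1 libraries and 34.9, 35.3 and 25.5 FPKM in shDLGAP5-1. In each group replicates 1 and 2 were close to each other and replicate 3 stood apart, above in shNC-1 and below in shDLGAP5-1. The log2 fold change was -0.37 (SE 0.24; limma adjusted p = 0.295), and it was -0.11 without shNC-1 replicate 3. Leaving out shDLGAP5-1 replicate 3 gave -0.22. On chromosome 22 the span of ADSL shares 19873 bases with SGSM3 on the same strand, a gene at 15.6 to 23.7 FPKM, so part of the reads may be assigned to either. It also shares 43935 bases with the protein-coding entry AL022238.4 on the same strand, which was at or below 0.585 FPKM.

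The members of the guanine branch did not pass in either direction. IMPDH2, the dehydrogenase that turns IMP toward guanine nucleotides, was the most abundant member, at 139.7, 137.0 and 161.8 FPKM in shNC-1 and 131.7, 146.7 and 139.6 FPKM in shDLGAP5-1. GMPS, which aminates the product to GMP, was at 20.7, 21.5 and 27.0 FPKM in the shNC-1 libraries and at 23.9, 22.8 and 23.5 FPKM in shDLGAP5-1. The groups overlapped in both genes, with log2 fold changes of -0.07 for IMPDH2 and 0.03 for GMPS (limma adjusted p = 0.697 and 0.884). The intervals of the ratio were 0.798 to 1.14 for IMPDH2 and 0.833 to 1.25 for GMPS. IMPDH2 shares 93 bases with an antisense entry that was at or below 1.42 FPKM. IMPDH1, the other IMP dehydrogenase, measured 29.8, 34.6 and 33.9 FPKM in the shNC-1 libraries and 18.6, 25.9 and 25.5 FPKM in shDLGAP5-1, with no overlap and a log2 fold change of -0.48 that did not pass (limma adjusted p = 0.0544) unless median-ratio scaling was used or the length trend removed (limma adjusted p = 0.0321 and 0.0258). The ratio of IMPDH2 to IMPDH1 was 4.47 ± 0.450 in shNC-1 and 6.08 ± 0.882 in shDLGAP5-1 (SD, n = 3 each; two-sided exact permutation p = 0.1, the smallest that 3 against 3 libraries allow).

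Both pyrimidine members fell. CTPS1, CTP synthase, which aminates UTP to CTP with glutamine, was at 28.2, 31.2 and 30.8 FPKM in the shNC-1 libraries and at 10.8, 14.5 and 16.5 FPKM in shDLGAP5-1. Every shDLGAP5-1 library was far below the controls, and the mean went from 30.1 ± 1.62 to 13.9 ± 2.86 FPKM (SD, n = 3 each), 53.7% lower. The log2 fold change was -1.08 (SE 0.16; limma adjusted p = 0.00454), and 1.31% of the tested genes had a lower one. CTPS1 (ENSG00000171793) lies on the plus strand of chromosome 1 from 40979335 to 41012565. CTPS2, the other CTP synthase, measured 6.90, 7.47 and 8.23 FPKM in the shNC-1 libraries and 7.26, 8.14 and 7.86 FPKM in shDLGAP5-1. Its groups overlapped, with a log2 fold change of 0.04 and an interval of the ratio from 0.852 to 1.24 (limma adjusted p = 0.835). The CTPS1 to CTPS2 ratio was 4.09, 4.18 and 3.74 in shNC-1 and 1.49, 1.78 and 2.10 in shDLGAP5-1, so CTPS1 remained the more abundant of the pair in every library.

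CAD, which joins the activities of the opening pyrimidine steps in 1 protein, was at 14.3, 14.5 and 13.1 FPKM in the shNC-1 libraries and at 5.34, 9.25 and 10.2 FPKM in shDLGAP5-1. The controls lay close together, while shDLGAP5-1 replicate 1 was well below the other libraries of its group. The mean went from 13.96 ± 0.749 to 8.27 ± 2.58 FPKM (SD, n = 3 each), 40.8% lower, a log2 fold change of -0.73 (SE 0.22; limma adjusted p = 0.0459). CAD passed without shDLGAP5-1 replicate 1, where its log2 fold change was -0.48, or replicate 3, and did not pass without shDLGAP5-1 replicate 2 or any 1 of the shNC-1 libraries (limma adjusted p = 0.0722 to 0.129). It lies on the plus strand of chromosome 2 from 27217369 to 27243943 (ENSG00000084774). The steps between CAD and CTPS1 also had lower means: DHODH, which oxidizes dihydroorotate in mitochondria, was at 2.57, 2.39 and 2.62 FPKM in shNC-1 and 1.45, 1.75 and 2.04 FPKM in shDLGAP5-1, and UMPS, which makes UMP, at 10.1, 9.20 and 11.9 FPKM and at 6.71, 5.84 and 9.0 FPKM. Neither passed (log2 fold changes of FPKM + 1 of -0.36 and -0.49, limma adjusted p = 0.0739 and 0.0776). Their mean FPKM were 30.67% and 30.95% lower. The groups did not overlap in either gene, which held in that direction for 18.3% of all tested genes. DHODH and UMPS passed without shDLGAP5-1 replicate 3 (limma adjusted p = 0.0470 and 0.0263) and with median-ratio scaling. DHODH also passed with quantile normalization or the length trend removed. In all, DHODH passed in 4 of 14 alternatives and UMPS in 2 of 15.

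**Figure D2:**
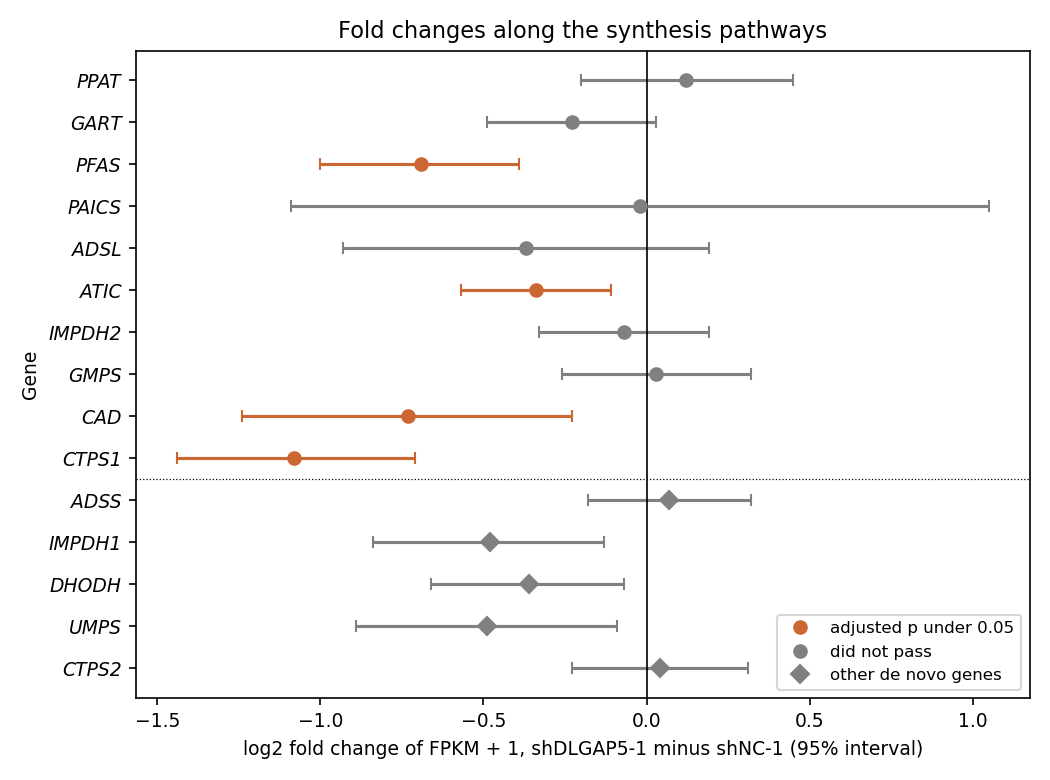
Log2 fold change of FPKM + 1, shDLGAP5-1 minus shNC-1 (points), with its 95% interval from limma (bars), for the 10 members in pathway order (circles) and 5 other genes of the de novo routes (diamonds). CTPS1, CAD, PFAS and ATIC, in orange, passed at an adjusted p under 0.05, and PAICS has the widest interval.

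The members covered a wide range of levels. In shNC-1 cells IMPDH2 (146 FPKM on average), ATIC (79.7), GART (51.1), ADSL (42.5), PAICS (39.5), CTPS1 (30.1), GMPS (23.1), PFAS (17.6), CAD (13.96) and PPAT (8.26) followed each other. Neighbours whose libraries overlapped were GART with ADSL, ADSL with PAICS and PAICS with CTPS1. In shDLGAP5-1 cells the order was IMPDH2 (139), ATIC (62.9), PAICS (44.1), GART (43.6), ADSL (31.9) and GMPS (23.4). PAICS, at 16.8 to 60.0 FPKM there, overlapped ATIC and spanned the libraries of GART, ADSL and GMPS. CTPS1 (13.9), PFAS (10.5), PPAT (9.02) and CAD (8.27) followed, and each of these overlapped the next. The 10 members summed to 423, 445 and 488 FPKM in shNC-1 and to 345, 412 and 404 FPKM in shDLGAP5-1, with no overlap (two-sided exact permutation p = 0.1, the smallest possible).

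The members differed in how they spread over the shDLGAP5-1 libraries. Relative to the shNC-1 mean on the log2(FPKM + 1) scale, CTPS1 stood at -1.39, -1.01 and -0.83 in replicates 1 to 3, CAD at -1.24, -0.54 and -0.42 and PFAS at -0.86, -0.70 and -0.51. In these 3 genes replicate 1 was the lowest, as it was for PAICS, GART and IMPDH2, whereas ATIC and ADSL were lowest in replicate 3. With the trend of each library against transcript length removed, the log2 fold changes were -1.06 for CTPS1, -0.70 for CAD, -0.68 for PFAS and -0.44 for ATIC, and all 4 still passed. The median of the members was -0.34, -0.23 and -0.25 in the 3 shDLGAP5-1 libraries, where the median of all tested genes was -0.01, 0.04 and 0.09. The 5 genes nearest to that median profile over the 6 libraries were XRCC5, SMYD5, SAE1, MAFK and TMEM109, at a root mean square distance of 0.029 to 0.035 on the log2 scale.

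**Figure D3:**
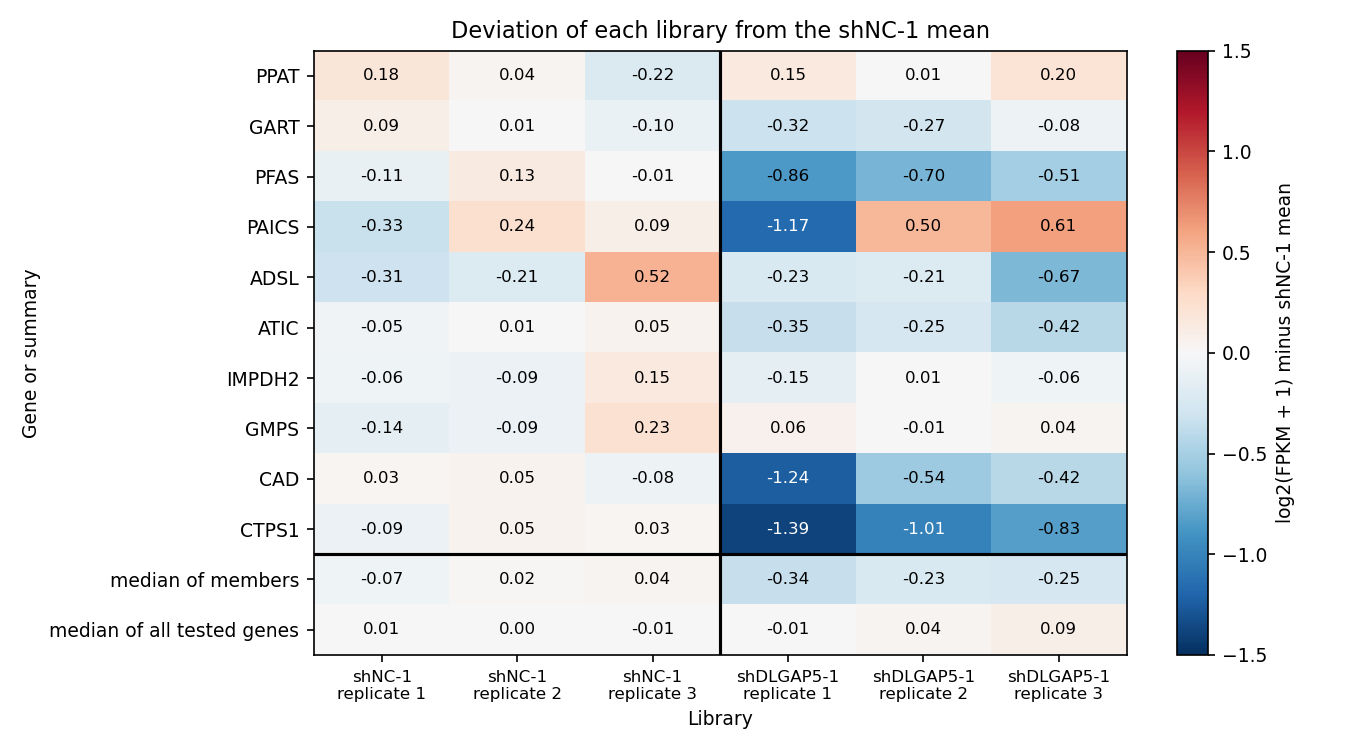
Deviation of each library (columns) from the shNC-1 mean, on the log2(FPKM + 1) scale, for the 10 members, their median and the median of all tested genes (rows); blue is lower and red higher. CTPS1 and PFAS are blue in all 3 shDLGAP5-1 libraries, and PAICS turns from -1.17 in replicate 1 to 0.61 in replicate 3.

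Other genes of nucleotide metabolism changed in both directions. Of 54 such genes 51 were tested, 5 fell and 4 rose, 9 of 51 in all beside the 24.8% of all tested genes, and their median log2 fold change was -0.10 against 0.03. The split depended on scaling: it was 9 lower and 1 higher after same-total scaling, 9 and 2 with median-ratio scaling and 13 and 3 with the length trend removed. The count was 3 (0 higher) when either shNC-1 replicate 1 or shNC-1 replicate 2 was left out, and 5 when either shNC-1 replicate 3 or shDLGAP5-1 replicate 2 was. Without shDLGAP5-1 replicate 3, 8 fell and 2 rose, and not all of the 8 are named as calls here.

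Upstream of the members, PRPSAP1, a regulatory protein of the PRPP synthetases, measured 37.9, 35.2 and 40.1 FPKM in the shNC-1 libraries and 18.8, 22.6 and 22.2 FPKM in shDLGAP5-1. It fell by 0.80 on the log2 scale (limma adjusted p = 0.00419) and passed in all 15 alternatives. Of the synthetases, both named after their values were seen, PRPS1 had a log2 fold change of -0.32 that did not pass (limma adjusted p = 0.0601) unless the length trend was removed (-0.44, limma adjusted p = 0.0165), with no overlap of the groups. PRPS2 had a log2 fold change of -0.10, with overlap. MTHFD1, the cytosolic enzyme that makes the formyl folate used for purines, fell by 0.50 (limma adjusted p = 0.0285), from 54.1, 48.6 and 46.0 FPKM in shNC-1 to 31.1, 33.4 and 39.9 FPKM in shDLGAP5-1. This call was lost in 5 of the 6 fits without 1 library, all but that without shDLGAP5-1 replicate 3. With no filter on low values, MTHFD1, ADK, APRT and DUT did not pass. ADSS (now named ADSS2), which opens the adenine branch, was at 22.8, 22.4 and 20.1 FPKM in the shNC-1 libraries and at 21.8, 22 and 24.8 FPKM in shDLGAP5-1, with overlap and an interval of the ratio from 0.882 to 1.25 (limma adjusted p = 0.666). Its paralog ADSSL1 was too low to be tested, at 0.195, 0.229 and 0.228 FPKM in shNC-1 and 0.916, 0.735 and 1.1 FPKM in shDLGAP5-1.

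Downstream, RRM1, the catalytic subunit of the enzyme that makes deoxynucleotides, fell by 0.66 on the log2 scale (limma adjusted p = 0.00748) and NME1, a nucleoside diphosphate kinase, by 0.75 (limma adjusted p = 0.0101). RRM1 was at 78.2, 82.2 and 78.6 FPKM in the shNC-1 libraries and at 43.8, 53.5 and 53.0 FPKM in shDLGAP5-1. NME1 measured 159.4, 169.6 and 191.5 FPKM in the shNC-1 libraries and 120.8, 91.9 and 96.7 FPKM in shDLGAP5-1, and both calls passed in all 15 alternatives. NME1 and NME2 are close paralogs, so the split of their reads is uncertain. DUT, which removes dUTP, rose by 0.67 (limma adjusted p = 0.0371), from 25.5, 28.3 and 34.7 FPKM to 59.0, 38.0 and 47.0 FPKM. Its call was lost in 4 of the 6 fits without 1 library, among them that without shDLGAP5-1 replicate 3 (limma adjusted p = 0.0695), and with median-ratio scaling (limma adjusted p = 0.0580).

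Among 11 salvage genes, which recycle bases and nucleosides, 2 rose and 1 fell, beside 15.3% higher and 9.52% lower over all tested genes. APRT, which salvages adenine, was at 51.6, 52.7 and 63.6 FPKM in the shNC-1 libraries and at 68.5, 84.1 and 76.1 FPKM in shDLGAP5-1. It rose by 0.44 on the log2 scale (limma adjusted p = 0.0442), and by 0.25, no longer a call, with the length trend removed (limma adjusted p = 0.211). It also missed the threshold with same-total or median-ratio scaling (limma adjusted p = 0.132 and 0.0685). UCKL1, a relative of the uridine-cytidine kinases, rose by 0.37 (limma adjusted p = 0.0241), from 23.2, 22.4 and 22.9 FPKM to 30.4, 29.7 and 29.6 FPKM. The UCKL1 call was lost with the length trend removed (0.25, limma adjusted p = 0.0525) and with same-total scaling (0.27, limma adjusted p = 0.111). ADK, adenosine kinase, fell by 0.68 (limma adjusted p = 0.0490). ADK measured 56.0, 61.2 and 96.7 FPKM in the shNC-1 libraries and 47.0, 40.5 and 40.8 FPKM in shDLGAP5-1, and its log2 fold change was -0.45 without shNC-1 replicate 3, the highest library. ADK did not pass in any of the 6 fits without 1 library, and APRT and UCKL1 did not in 4 of them. Without shDLGAP5-1 replicate 3 the limma adjusted p was 0.0986 for ADK and 0.0793 for APRT. Of 8 tested breakdown genes 1 changed, beside 24.8% of all tested genes: ADA, adenosine deaminase, rose from 2.52, 2.80 and 2.48 FPKM to 4.01, 4.27 and 4.94 FPKM (log2 fold change 0.58, limma adjusted p = 0.0148), a call lost without any 1 of the shNC-1 libraries (limma adjusted p = 0.0514 to 0.0617) and with same-total scaling (limma adjusted p = 0.0521).

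MYC, a regulator known to act on many genes of these routes, differed more between libraries of a group than between the groups. Its level was 2.90, 29.5 and 3.44 FPKM in shNC-1 and 3.95, 32.3 and 4.35 FPKM in shDLGAP5-1: replicate 2 was high in both groups and the other libraries were low. The log2 fold change was 0.25 with a standard error of 0.98, giving a ratio interval of 0.239 to 5.90 (limma adjusted p = 0.879), and it was 0.67 without shDLGAP5-1 replicate 3.

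**Figure D4:**
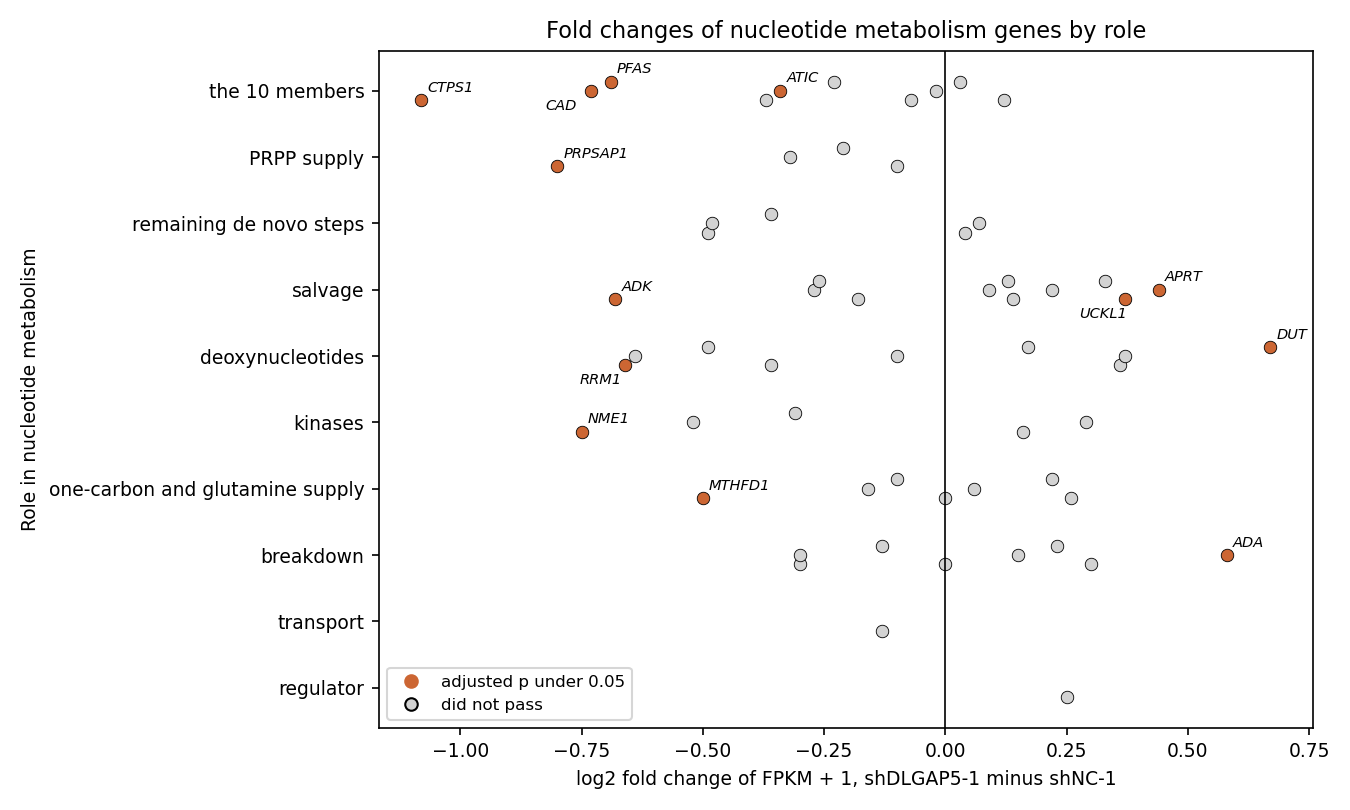
Log2 fold change of FPKM + 1, shDLGAP5-1 minus shNC-1, for the 10 members and for the 51 tested other genes of nucleotide metabolism, in rows by role; orange points passed at an adjusted p under 0.05 and are named. The 4 called members lie left of 0, and the called genes of the other roles lie on both sides, from PRPSAP1 at -0.80 to DUT at 0.67.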

How the data were processed

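The authors deposited 1 table for the 6 libraries, made from mRNA libraries of column-purified total RNA, per the labels' protocols. Its header names no unit; the deposited values behave as FPKM, being not whole, summing to 413001 to 487559 per library, and piling up in low single-exon genes at steps inverse to length. What aligner, quantifier, annotation, build or strand setting was used is not given in the sources used here. Coordinates of 86.6% of the 58825 entries are those of GENCODE release 29 (GRCh38), as for 7 of the 10 members, and are printed as in the table. Of low values in single-exon genes of at least 1000 bases, only 17.3% to 28.8% in a library were whole multiples of the step (tolerance 0.05); counts were thus not recovered, and no count test was run. FPKM divide by length and by library total, so abundant or short transcripts shift the rest.

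The 12714 genes reaching 1 FPKM in 3 or more libraries entered a limma fit (version 3.58.1, R 4.3.3; trended variance, group as the only term) on log2(FPKM + 1), which understates changes of low genes; the call was an adjusted p under 0.05. The fit was tested on simulated data. Levels are means ± SD. Intervals are 95%, and those of a ratio are of FPKM + 1. Length trends are lowess curves with a span of 0.3 against the longest transcript. The 10 members were fixed by name. All are described, with every called gene of a list of other nucleotide genes, the partner isoforms and missing steps of the routes, and MYC. The members and lists were chosen with earlier results of these data known. The 15 alternatives changed the pseudocount (0.1), the filter (none, or 5 FPKM), the scaling (same total, median ratio, quantile), or removed the length trend, added a replicate block, did both, or left out each library in turn.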

Additional observations from a re-analysis of the deposited data

How the results depend on the processing

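The 4 calls among the members became 2 with no filter on low values and 2 with the replicate block, and ranged from 1 to 3 as single libraries were left out, which also lowers the number of samples: CTPS1 alone passed without shNC-1 replicate 2. Their median log2 fold change was -0.39 with same-total scaling and -0.33 to -0.19 without 1 library. The calls among the other nucleotide genes numbered 16 with the length trend removed and 3 with the replicate block, and 3 to 10 without 1 library. Over all tested genes, 3155 calls became 2071 with no filter, 1464 with the replicate block and 1335 to 3141 without 1 library. The share of these calls that were higher, 61.6% as reported, was 48.1% with same-total scaling, 50.8% with quantile normalization and 50% with the length trend removed. The replicate numbers were not taken as pairs. Across all tested genes same-numbered libraries did not deviate together (correlations of -0.155, 0.021 and -0.157 for replicates 1 to 3), and no library correlated best with its own number. MYC did deviate by number, being high in replicate 2 of both groups (29.5 and 32.3 FPKM). With the replicate block its limma adjusted p was 0.304.

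The sign of some small changes turned, with no call on either side. PAICS was 0.05 with quantile normalization, and 0.10, 0.02 and 0.55 without shNC-1 replicate 2, shNC-1 replicate 3 and shDLGAP5-1 replicate 1 (range without 1 library -0.34 to 0.55). IMPDH2 was 0.01 without shNC-1 replicate 3 (range -0.11 to 0.01). GMPS was -0.08 with same-total and -0.02 with median-ratio scaling, and -0.04 and -0.01 without shNC-1 replicates 1 and 2 (range -0.04 to 0.14). ADSS was -0.04 with same-total scaling. CTPS2 was -0.06 with same-total scaling, -0.01 with median-ratio scaling or quantile normalization, and -0.02 without shNC-1 replicate 1. MYC was -0.28, -0.19 and -0.65 without shNC-1 replicate 1, shNC-1 replicate 3 and shDLGAP5-1 replicate 2 (range -0.65 to 1.2). The cause of these changes was not tested. Depth was estimated, not given, so counting error is known only approximately.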
